A study of Homo sapiens with 18 samples.

Results

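Imprinted genes were followed across 18 bulk RNA sequencing libraries of human neuroblastoma xenografts, that is, tumours grown in mice from cultured human lines. The 36 genes were a fixed list of symbols, looked up by gene identifier in the deposited gene tables, and 34 of 63677 listed identifiers were matched. HYMAI and PEG13 were not matched and are not analysed here. A minimum of 1 TPM (transcript abundance scaled for gene length and for the library total) in at least 3 libraries was met by 31 of the 34, and 18650 genes in all met it. Of the 36 genes, 22 are classed as paternally expressed, 8 as maternally expressed and 4 as isoform or tissue dependent (BLCAP, GRB10, GNAS and INPP5F). The imprinting of DLX5 and ZFP57 in humans is contested.

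The 6 groups were control and Hmx1 tumours of the lines SKNAS, LAN-1 and KELLY, with 3 libraries per group and 6 per line. The names of the groups come from the sample titles. The labels give treatment and strain as none for every sample, and MYCN amplification is noted only for KELLY control replicates 2 and 3. They do not state whether Hmx1 was raised or lowered, by which construct, or the age or strain of the host mice. Separate host animals are not named, so each p-value covers only library-to-library spread, part of which may be technical.

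In genomic imprinting a gene is transcribed mainly from the copy inherited from a given parent. The choice is carried by DNA methylation set in the germ line at imprinting control regions, and most imprinted genes lie in clusters in which 1 such region serves several genes of opposite parental expression. Many act on growth: IGF2 is a fetal growth factor, and CDKN1C and H19 restrain growth from the maternal copy. DLK1, a transmembrane protein of the Notch ligand family, marks immature sympathoadrenal cells. TPM sums both parental copies, so the values below give the output of a gene and not which copy was transcribed.

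HMX1, a homeobox gene, gives the arm its name. It was at 0 TPM in all 3 SKNAS control libraries and at 1.24, 0.193 and 0.411 TPM in the SKNAS Hmx1 libraries. In LAN-1 it lay at 11.1 to 11.9 TPM in control and at 11.4 to 16.5 TPM in Hmx1 libraries, and in KELLY at 3.92 to 7.72 and 4.68 to 6.398 TPM, so these arms overlapped. All 10 neuroblast markers were detected in every group, with TH under 1 TPM in the SKNAS Hmx1 libraries. The mitochondrial share of TPM ran from 4.47% to 33.8%, with the highest share in KELLY control replicate 1. Read depth cannot be recovered from TPM, so no counting interval is printed. No source used here states how mouse reads were treated, and reads from host cells may have been assigned to the human genes.

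The imprinted genes together held between 0.232% and 0.494% of all TPM. At least 1 TPM in all 6 libraries was reached by 26 of 34 genes in SKNAS, 23 in LAN-1 and 24 in KELLY, and by 19 genes in all 18 libraries. GNAS and DLK1 were the most abundant, with means over all libraries of 1231 and 1402 TPM. GNAS, which encodes the stimulatory G protein alpha subunit, lay between 824 and 2412 TPM, and no difference between the control lines was called on the deposited scale. With median-ratio scaling it was called lower in SKNAS and LAN-1 than in KELLY (log2 differences -1.03 and -0.99, limma adjusted p = 0.000134 and 0.000275). PHLDA2, a maternally expressed growth restrainer of placenta, stayed at or under 0.268 TPM, and ZIM2 at or under 0.0823 TPM. MAGEL2 was listed at 0 in all 18 libraries. These 3 genes were under the minimum and were not tested.

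**Figure D1:**
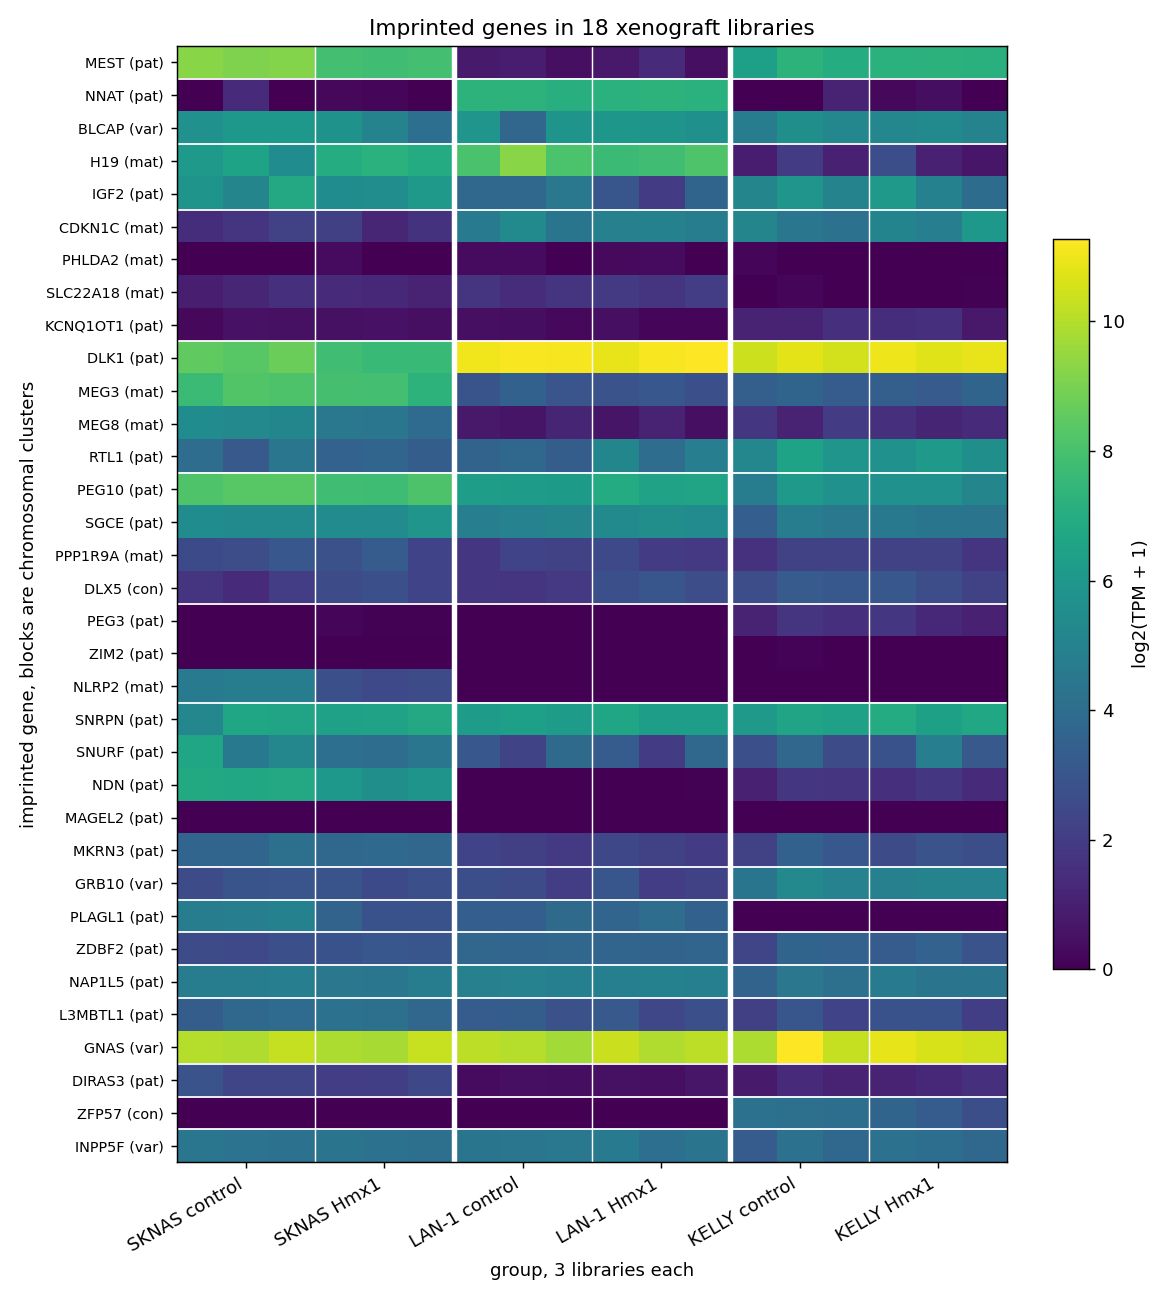
Level of the 34 matched imprinted genes as log2(TPM + 1), with genes in rows and the 18 libraries in columns. White lines separate chromosomal clusters, arms and lines, and pat, mat, var and con mark paternal, maternal, isoform or tissue dependent and contested imprinting. Whole rows switch between lines: NNAT is bright in LAN-1, ZFP57 in KELLY and NLRP2 in SKNAS, whereas GNAS is bright in all 18 libraries.

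For 17 of the 34 genes, the 6 libraries of the highest line lay above all 12 others. SKNAS was highest for 9 of these genes, KELLY for 5 and LAN-1 for 3. The plot of levels by library shows them as rows that change at a line border. This count was not made over all genes, so it does not set the imprinted genes apart from others. The control tumours of the lines were compared with limma on log2(TPM + 1), with p-values adjusted over all genes by the Benjamini-Hochberg method and a gene called at an adjusted p under 0.05.

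Between SKNAS and LAN-1 controls 17 of the 31 tested genes were called, 12 higher and 5 lower in SKNAS, 54.8% of them, where 52% of all tested genes were called, 31.5% higher and 20.5% lower. Between SKNAS and KELLY controls 25 were called, 17 higher and 8 lower in SKNAS, 80.6% of them, against 65.7% of all genes, 49.5% higher and 16.1% lower. Between LAN-1 and KELLY controls 21 were called, 9 higher and 12 lower in LAN-1, 67.7% of them, against 51.8% of all genes, 38.2% higher and 13.6% lower. The control libraries did not overlap for 20, 25 and 20 of the 31 genes in these comparisons, beside 66.5%, 63.6% and 55.8% of all genes. No test of the list against other genes was made. The median of all genes was itself shifted on this scale, by 0.18, 0.54 and 0.34 in the order given, and median-ratio scaling took it to 0.05, 0.03 and 0. With that scaling the split was 12 higher and 6 lower, 13 and 11, and 5 and 14. With quantile normalization it was 12 and 8, 13 and 10, and 6 and 14, and with FPKM 12 and 5, 15 and 9, and 6 and 13. The paternally expressed genes summed to 1711 ± 119.3, 2644 ± 113.3 and 1967 ± 359 TPM in the SKNAS, LAN-1 and KELLY controls, and the maternally expressed genes to 402 ± 57.8, 423 ± 215 and 40.9 ± 7.41 TPM (mean ± SD, n = 3 libraries each). DLK1 alone made up 21.5%, 83.7% and 78.7% of the paternal sum in these groups. Without it the paternal sum was 1342 ± 72.9 TPM in SKNAS, 431 ± 8.15 TPM in LAN-1 and 426 ± 140.1 TPM in KELLY. SKNAS thus went from the lowest to the highest. Markers of host cells also differed between these groups. The 8 host fibroblast markers summed to at least 1135 TPM in SKNAS, and to at most 30.8 TPM in LAN-1 and 169 TPM in KELLY. The 6 leukocyte markers summed to at least 77.3 TPM in SKNAS, and to at most 1.75 TPM in LAN-1 and 0.69 TPM in KELLY. The 6 endothelial markers were lower in SKNAS (at most 4.75 TPM) than in KELLY (at least 5.1 TPM). The part of host cells in the differences between lines was not tested.

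MEST, a paternally expressed hydrolase-like gene of 7q32 (ENSG00000106484, GRCh37 chromosome 7, 130126012 to 130146133), separated all 3 lines. It stood at 621, 539 and 573 TPM in the SKNAS controls, at 0.738, 0.807 and 0.369 TPM in the LAN-1 controls and at 80.1, 156 and 126 TPM in the KELLY controls. No library of 1 line reached the range of another. The log2 differences were 8.47 (SKNAS against LAN-1, SE 0.23, limma adjusted p = 6.27e-15) and -6.18 (LAN-1 against KELLY, adjusted p = 9.7e-13). The microRNA pair of MEST lies within its transcription unit. The mature forms of the microRNAs within MEST, H19 and MEG3 are shown because the levels of these host transcripts set the lines apart, with the seed (bases 2 to 8) in capitals, 5′ to 3′, from RefSeq on GRCh38.p14. No seed is shared among them. The libraries measured polyadenylated transcripts, and the mature microRNAs themselves were not measured.
miR-335-5p (MEST): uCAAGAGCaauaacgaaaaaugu
miR-335-3p (MEST): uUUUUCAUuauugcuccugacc
miR-675-5p (H19): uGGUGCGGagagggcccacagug
miR-675-3p (H19): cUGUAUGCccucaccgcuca
miR-770-5p (MEG3): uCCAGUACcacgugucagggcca

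In the 14q32 cluster the paternally expressed DLK1 and the maternally expressed long noncoding RNA MEG3 set SKNAS apart in opposite directions. DLK1 (ENSG00000185559, GRCh37 chromosome 14, 101192042 to 101201539) stood at 362, 325 and 420.2 TPM in the SKNAS controls. The LAN-1 controls held 2086, 2309.6 and 2244 TPM and the KELLY controls 1367, 1793 and 1463 TPM. SKNAS therefore had the least DLK1, with log2 differences of -2.59 from LAN-1 (adjusted p = 7.38e-11) and -2.06 from KELLY (adjusted p = 1.7e-09). LAN-1 exceeded KELLY by 0.53 (adjusted p = 0.00556), a call that ended under median-ratio scaling (0.05), FPKM, removal of mitochondrial transcripts, a fit of the compared groups alone, and in the Hmx1 arms (0.26).

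MEG3 (chromosome 14, 101245747 to 101327368) stood at 207, 298 and 275 TPM in the SKNAS controls, against 6.65 to 10.2 TPM in LAN-1 and 8.58 to 11.4 TPM in KELLY. SKNAS thus had the most, by 32.9-fold over LAN-1 (log2 difference 4.88, adjusted p = 2.41e-12) and 26.4-fold over KELLY (4.58, adjusted p = 6.02e-12). MEG3 made up 41.3% ± 5.92 of the summed MEG3 and DLK1 TPM in the SKNAS controls, 0.354% ± 0.0740 in LAN-1 and 0.637% ± 0.0573 in KELLY (n = 3 libraries each). MEG8, the next maternally expressed RNA of the cluster, followed MEG3, with 43.2, 39.1 and 35.2 TPM in the SKNAS controls and at most 1.25 TPM in LAN-1 and 2.98 TPM in KELLY. Small nucleolar RNA genes lie within the MEG8 unit on its strand, and none exceeded 5.53 TPM.

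RTL1, the retrotransposon-derived paternal gene of the same cluster, was highest in KELLY, at 36.2, 91.4 and 58.4 TPM in the controls. It lay at 7.94 to 20.8 TPM in SKNAS and at 9.16 to 13.1 TPM in LAN-1 controls, and these overlapped. In the controls RTL1 therefore did not follow DLK1, which was lower in SKNAS than in LAN-1 without overlap. In the Hmx1 arms RTL1 was also lower in SKNAS than in LAN-1 (log2 difference -1.15, limma adjusted p = 0.0101). The KELLY controls were 4.21-fold above SKNAS (adjusted p = 8.57e-05) and 5.56-fold above LAN-1 (adjusted p = 3.61e-05).

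**Figure D2:**
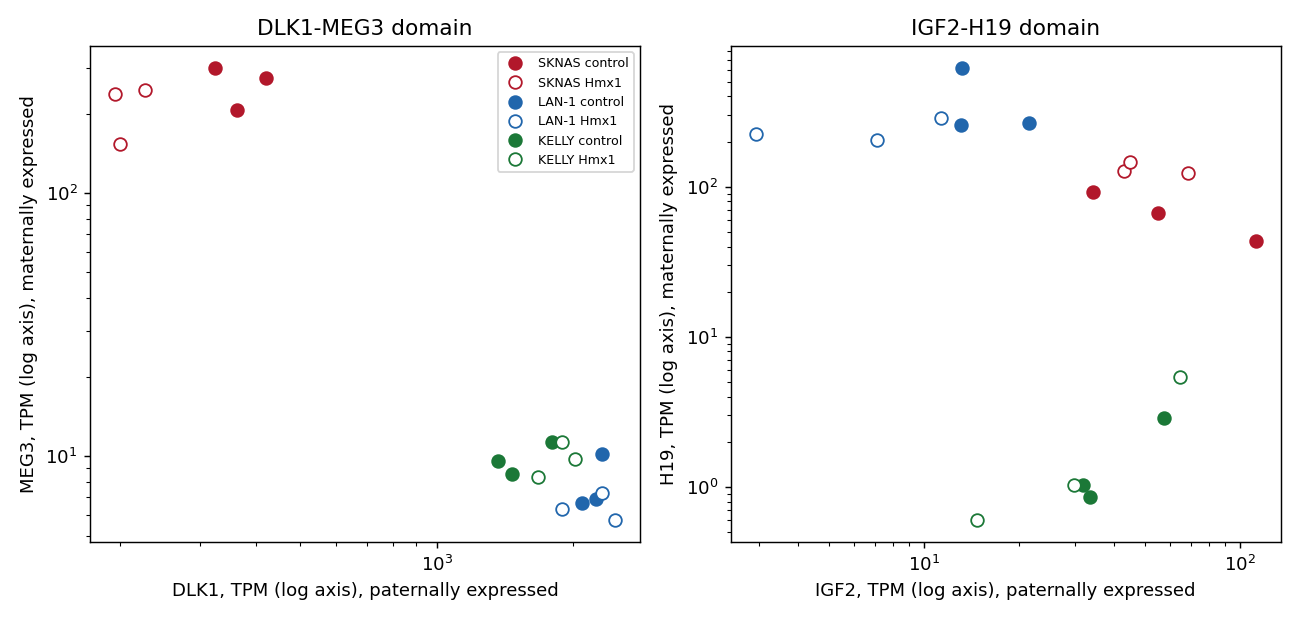
TPM of the maternally expressed partner (vertical, log axis) against the paternally expressed partner (horizontal, log axis) in each of the 18 libraries, for DLK1 with MEG3 (left) and IGF2 with H19 (right). Colours mark lines, filled points control and open points Hmx1 libraries. SKNAS stands apart on the left panel, with MEG3 at 154 TPM or more and DLK1 at 420.2 TPM or less, and each line holds its own area on the right panel.

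At 11p15, H19, a maternally expressed noncoding RNA, and IGF2, its paternally expressed neighbour, also separated the lines. H19 stood at 66.4, 91.9 and 43.7 TPM in the SKNAS controls, at 259, 615 and 267 TPM in LAN-1 and at 0.857, 2.90 and 1.04 TPM in KELLY. LAN-1 control replicate 2 held the highest value of all 18 libraries. The log2 difference between LAN-1 and KELLY was 7.16 (SE 0.44, adjusted p = 6.96e-10), and that between SKNAS and KELLY was 4.74 (adjusted p = 7e-08). SKNAS lay below LAN-1 in the controls (-2.42, adjusted p = 0.000194), but this call ended in the Hmx1 arms (-0.84, adjusted p = 0.122). IGF2 was at 55.3, 34.3 and 112.3 TPM in SKNAS, at 13.1, 13.2 and 21.5 TPM in LAN-1 and at 33.5, 57.7 and 31.8 TPM in KELLY controls. LAN-1 was the lowest, below SKNAS by 4.23-fold (adjusted p = 0.00418) and below KELLY by 2.58-fold (adjusted p = 0.0373), but the call against KELLY ended without a filter, without LAN-1 control replicate 1 or 2 and without KELLY control replicate 1 or 2, with an adjusted p of up to 0.127 and a log2 difference of -1.03 at the smallest. SKNAS and KELLY were not told apart (log2 difference 0.59, adjusted p = 0.31). An unnamed gene on the same strand and the antisense IGF2-AS overlap IGF2, at 2.68 to 147 and 0.833 to 29.2 TPM, so the division of reads among them is uncertain. H19 made up 92.5% to 98.7% of the summed H19 and IGF2 TPM in LAN-1, 28.0% to 76.4% in SKNAS and 2.50% to 7.78% in KELLY, over 6 libraries each.

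The neighbouring KCNQ1OT1 domain gave another order. CDKN1C, a cyclin-dependent kinase inhibitor, was low in SKNAS at 1.76, 2.22 and 3.68 TPM in the controls. LAN-1 controls held 25.1, 40.3 and 19.9 TPM, and KELLY controls 33.8, 20.7 and 17.9 TPM. SKNAS lay below both (log2 differences -3.03 and -2.81, adjusted p = 5.79e-07 and 1.22e-06), and LAN-1 and KELLY overlapped. KCNQ1OT1, the long paternal RNA of the domain, was at 0.721 TPM or more in KELLY and at 0.473 TPM or less in the other lines. SLC22A18, a maternally expressed transporter gene, was at 1.73 to 3.14 TPM in LAN-1 and 0.938 to 1.98 TPM in SKNAS, and in KELLY at 0.121 TPM or less.

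At 7q21, PEG10, a paternally expressed gene of retrotransposon origin, was at 288, 321 and 319 TPM in the SKNAS controls, 79.9, 72.8 and 68.8 TPM in LAN-1 and 25.2, 66.8 and 51.2 TPM in KELLY. SKNAS exceeded LAN-1 by 4.19-fold (adjusted p = 3.22e-06) and KELLY by 6.48-fold (adjusted p = 6.68e-08). SGCE, which encodes epsilon-sarcoglycan and shares a promoter region with PEG10, spanned only 9.26 to 57.3 TPM. Its SKNAS and LAN-1 libraries overlapped, and the KELLY libraries lay below both on the deposited scale. The call of LAN-1 above KELLY controls (log2 difference 0.77, limma adjusted p = 0.0184) ended in 7 of 18 alternatives. These included median-ratio scaling (0.32, adjusted p = 0.163), FPKM and quantile normalization. The call of SKNAS above KELLY controls held in all 18. PPP1R9A, which encodes neurabin, lay between 2.02 and 8.62 TPM, and DLX5, a homeobox gene, between 1.58 and 8.37 TPM.

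At 15q11-q13, NDN, the paternally expressed gene for necdin, was at 113.8, 107.7 and 110.4 TPM in the SKNAS controls. It was listed at 0 in 5 of 6 LAN-1 libraries and at 0.0393 TPM in the other, and KELLY controls held 1.05, 2.45 and 2.28 TPM. The log2 difference between SKNAS and KELLY was 5.29 (adjusted p = 2.42e-13). SNRPN, a gene for a splicing ribonucleoprotein, lay at 36.7 to 120.95 TPM over all 18 libraries. SNURF shares its transcript with SNRPN, and SKNAS control replicate 1 had 99.8 TPM of SNURF with 36.7 TPM of SNRPN, against 22.7 and 35.8 TPM of SNURF and 99.3 and 93.5 TPM of SNRPN in the other SKNAS controls. Their sum was 136.4, 122.005 and 129.3 TPM in these libraries, so the split between these symbols is uncertain and the sum is described here. The counts of calls above do include SNURF on its own. It was called higher in SKNAS than in LAN-1 and KELLY controls (log2 differences 2.39 and 2.45, limma adjusted p = 0.00229 and 0.00142). Both calls ended in the Hmx1 arms (adjusted p = 0.0935 and 0.388). The sum lay at 74.3 to 136.4 TPM over all 18 libraries, with overlapping lines. MKRN3, a ring finger gene, was highest in SKNAS, at 11.8 to 17.0 TPM against 2.80 to 4.37 TPM in LAN-1 and 3.54 to 10.5 TPM in KELLY.

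At 19q13, NLRP2, a maternally expressed gene of the NLR family that is known from oocytes and early embryos, was at 25.0, 25.97 and 26.4 TPM in the SKNAS controls. It was listed at 0 in all 6 LAN-1 libraries and in 5 of 6 KELLY libraries, with 0.0298 TPM in the remaining one. PEG3, a paternally expressed zinc finger gene with growth-restraining roles, differed from NLRP2 in SKNAS and KELLY but not in LAN-1. It was found at 1.04 to 2.48 TPM in KELLY, was listed at 0 in LAN-1 and in the SKNAS controls, and reached 0.127 TPM at most in the SKNAS Hmx1 libraries.

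Among the single-gene loci, NNAT, a paternally expressed proteolipid gene of developing brain, was a LAN-1 gene. LAN-1 controls held 157, 155 and 137 TPM and LAN-1 Hmx1 libraries 146, 153 and 144 TPM. The other 12 libraries held at most 1.59 TPM. NNAT lies inside BLCAP on the opposite strand, and BLCAP did not follow it: over the same lines BLCAP was at 12.3 to 60.9 TPM in LAN-1, 16.4 to 64.2 TPM in SKNAS and 26.6 to 47.4 TPM in KELLY. The 12.3 TPM belonged to LAN-1 control replicate 2, whose arm otherwise held 58.6 and 55.3 TPM, and this was also the library with the highest H19.

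ZFP57, which encodes the zinc finger protein that protects methylation at imprinting control regions, was detected only in KELLY, at 17.7, 17.0 and 16.0 TPM in the controls, and was listed at 0 in the other 12 libraries. PLAGL1, a paternally expressed zinc finger gene of 6q24, had the opposite pattern. It was at 26.5, 27.1 and 29.98 TPM in SKNAS and 9.40, 9.32 and 14.1 TPM in LAN-1 controls, and was listed at 0 in 5 of 6 KELLY libraries. GRB10, an adaptor of insulin and growth factor receptors, was highest in KELLY, at 19.7 to 38.6 TPM against 3.14 to 7.02 TPM in the other lines. DIRAS3, a paternally expressed Ras-family gene, was at 3.11 to 6.34 TPM in SKNAS, 0.746 to 1.84 TPM in KELLY and 0.275 to 0.606 TPM in LAN-1, with no overlap between neighbouring lines.

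ZDBF2, NAP1L5, L3MBTL1 and INPP5F were expressed in every library. NAP1L5, a nucleosome assembly protein gene, spanned 11.2 to 30.7 TPM and INPP5F, a phosphoinositide phosphatase gene, 8.78 to 23.6 TPM. INPP5F was called higher in SKNAS than in KELLY controls (log2 difference 0.54, adjusted p = 0.0298), a value equal to the shift of all genes. The call ended in 10 of 18 alternatives, and with median-ratio scaling the difference was -0.05 (adjusted p = 0.722). L3MBTL1, a chromatin reader gene, was at 9.08 to 17.7 TPM in SKNAS and at 3.32 to 8.97 TPM in the other lines, and ZDBF2 was at 11.02 to 12.2 TPM in LAN-1 and at 4.14 to 11.3 TPM in the rest.

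Hmx1 tumours of SKNAS differed from their controls in 7 of the 31 tested imprinted genes, with 1 higher and 6 lower. Over all tested genes 8.76% were called, 4.96% higher and 3.8% lower. The arms did not overlap for 13 of the 31, against 30.9% of all genes. The median log2 change of the 31 was -0.14, and that of all genes was 0. NLRP2, PLAGL1, MEST, MEG8, NDN and DLK1 fell, and DLX5 rose. In bulk tumour RNA, fewer cells of a type and less RNA per cell cannot be told apart.

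NLRP2 (ENSG00000022556, GRCh37 chromosome 19, 55464498 to 55512510) went from 25.0, 25.97 and 26.4 TPM in control to 5.74, 4.63 and 5.15 TPM in Hmx1 libraries. The arms lay far apart relative to their spread, at 25.8 ± 0.698 and 5.17 ± 0.553 TPM (SD, n = 3), a 4.98-fold fall (log2 change -2.12, SE 0.12, limma adjusted p = 1.79e-09). PLAGL1 (ENSG00000118495, chromosome 6, 144261437 to 144385735) went from 26.5, 27.1 and 29.98 TPM to 11.2, 6.08 and 6.10 TPM, a 3.58-fold fall (log2 change -1.76, SE 0.22, adjusted p = 1.99e-05). Hmx1 replicate 1 held the highest PLAGL1 level of its arm, still below every control.

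MEST went from 621, 539 and 573 TPM to 237, 221 and 241 TPM, a 2.48-fold fall (log2 change -1.31, SE 0.23, adjusted p = 0.00085). The Hmx1 libraries of SKNAS thus remained above all KELLY and LAN-1 libraries for MEST. NDN (ENSG00000182636, chromosome 15, 23930565 to 23932450) went from 113.8, 107.7 and 110.4 TPM to 62.6, 47.8 and 56.1 TPM, a 1.99-fold fall (log2 change -0.99, SE 0.19, adjusted p = 0.00209). Of the NDN cluster, MKRN3 did not pass (log2 change -0.06), and the sum of SNRPN and SNURF was 129 ± 7.21 TPM in control and 112.9 ± 14.4 TPM in Hmx1 libraries.

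At 14q32, DLK1 and MEG8 fell and MEG3 did not pass. DLK1 went from 362, 325 and 420.2 TPM to 227, 195 and 199.9 TPM, with no overlap (1.78-fold, log2 change -0.82, SE 0.14, adjusted p = 0.000904). MEG8 (ENSG00000225746, chromosome 14, 101403738 to 101426536) went from 43.2, 39.1 and 35.2 TPM to 21.9, 20.6 and 14.5 TPM (2.06-fold, log2 change -1.02, SE 0.24, adjusted p = 0.00956). The MEG8 call ended with a pseudocount of 0.1 (adjusted p = 0.115), without SKNAS control replicate 1 (-0.95, adjusted p = 0.0508) and without SKNAS Hmx1 replicate 3 (-0.85, adjusted p = 0.068). MEG3 was at 207, 298 and 275 TPM in control and 247, 239 and 154 TPM in Hmx1 libraries, which overlapped (log2 change -0.30, adjusted p = 0.541). The MEG3 share of summed MEG3 and DLK1 TPM was 41.3% ± 5.92 in control and 50.2% ± 5.97 in Hmx1 libraries, with overlapping ranges.

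DLX5 (ENSG00000105880, chromosome 7, 96649704 to 96654409), a homeobox gene of craniofacial and limb development, went from 2.25, 1.58 and 3.11 TPM to 5.03, 5.65 and 3.85 TPM. It rose by 2.09-fold (log2 change 0.83, SE 0.23, adjusted p = 0.0294), and the arms did not overlap. The call ended when only the SKNAS groups were fitted (adjusted p = 0.0805), without control replicate 1 (0.83, adjusted p = 0.0879) or 2 (0.66, adjusted p = 0.16), and without Hmx1 replicate 1 (0.80, adjusted p = 0.103) or 2 (0.73, adjusted p = 0.137). NLRP2, PLAGL1, MEST, NDN and DLK1 passed under all 17 alternatives that bear on this comparison.

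**Figure D3:**
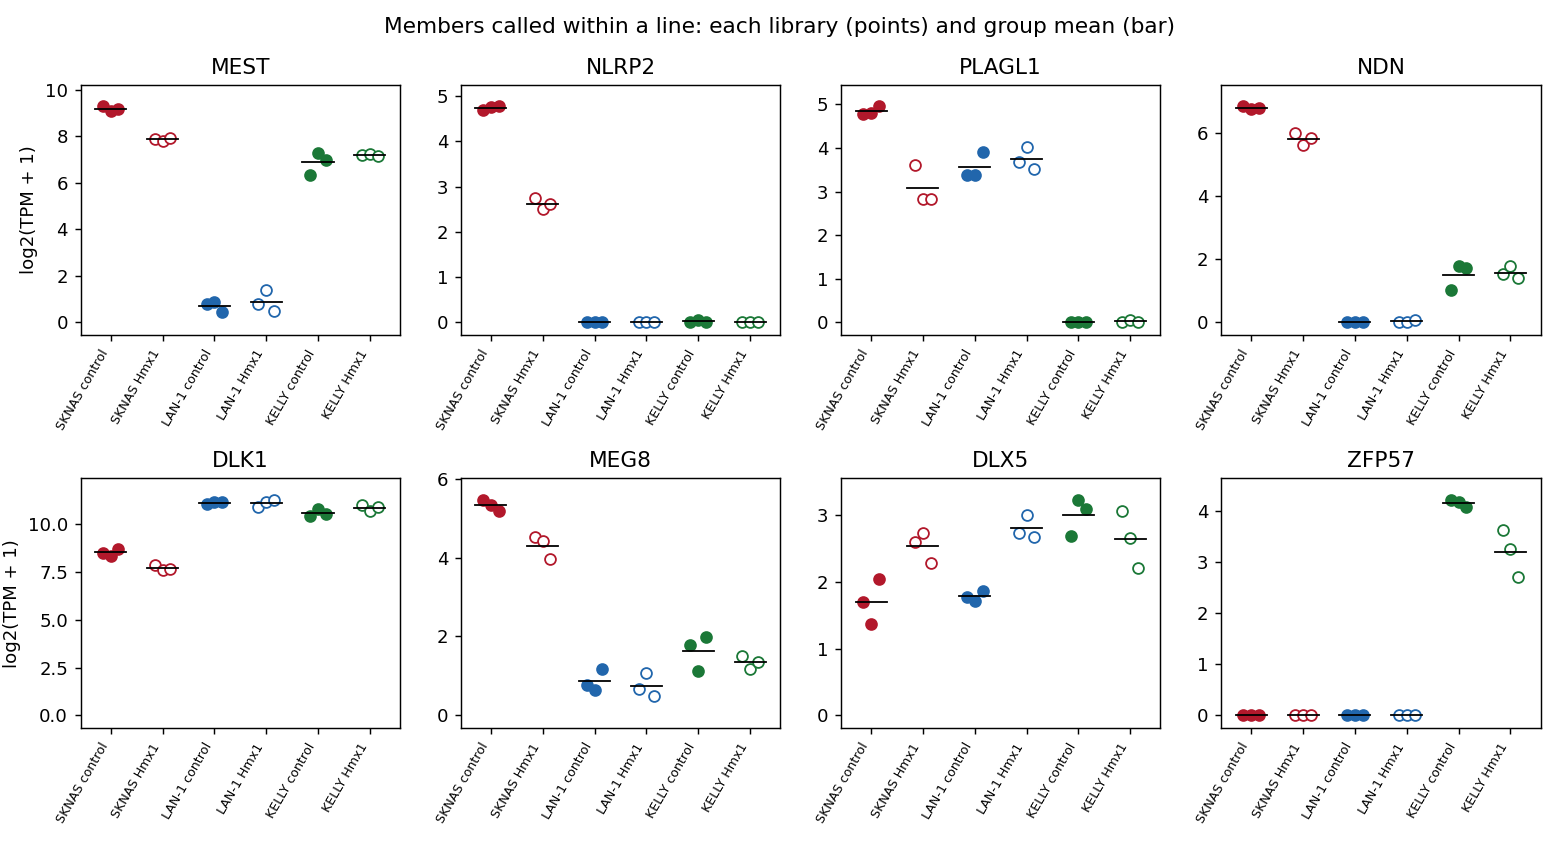
log2(TPM + 1) of the 8 imprinted genes called between arms of a line, in all 18 libraries. Points are libraries (filled control, open Hmx1) and bars are group means. MEST, NLRP2, PLAGL1, NDN, DLK1 and MEG8 step down from the SKNAS control to the SKNAS Hmx1 libraries, DLX5 steps up, and ZFP57 is above 0 only in KELLY.

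The other 24 tested genes did not pass in SKNAS. H19 stood at 66.4, 91.9 and 43.7 TPM in control and at 127, 146 and 123.04 TPM in Hmx1 libraries, which did not overlap (log2 change 1.02, adjusted p = 0.214), while IGF2 overlapped (-0.22, adjusted p = 0.908). PEG10 went from 288, 321 and 319 TPM to 223, 221 and 281 TPM (log2 change -0.36, adjusted p = 0.542). The summed TPM of the paternally expressed genes was 1711 ± 119.3 in control and 1029.8 ± 76.2 in Hmx1 libraries, with lowest control and highest Hmx1 sums of 1587 and 1109 TPM. The maternal sum was 402 ± 57.8 and 379 ± 65.6 TPM, with overlapping ranges. MEST and DLK1 are the most abundant genes of the paternal sum that fell.

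The start regions of the SKNAS genes with the largest falls are shown because these genes lie on different chromosomes and fell together. A hexamer is marked because ZFP57, the KELLY gene described above, is known to bind it when methylated at imprinted regions. ZFP57 was listed at 0 in all SKNAS libraries, and a link between the hexamer and these falls was not tested. Each is the 250 bases before a RefSeq start (GRCh38.p14, strand of the gene, 5′ to 3′), and where a gene has several starts the window with the most CpG pairs was taken. Capitals mark TGCCGC or its reverse complement GCGGCA. The coordinates are chr19:54965034-54965283 for NLRP2, chr6:144008260-144008509 for PLAGL1, chr7:130486097-130486346 for MEST and chr15:23687306-23687555 for NDN. MEG8 and DLK1 had no entry.
NLRP2: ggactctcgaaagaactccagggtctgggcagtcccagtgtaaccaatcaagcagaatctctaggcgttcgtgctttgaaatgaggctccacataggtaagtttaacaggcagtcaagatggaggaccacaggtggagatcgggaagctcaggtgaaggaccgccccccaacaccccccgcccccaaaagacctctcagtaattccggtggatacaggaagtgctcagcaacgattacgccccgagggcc
PLAGL1: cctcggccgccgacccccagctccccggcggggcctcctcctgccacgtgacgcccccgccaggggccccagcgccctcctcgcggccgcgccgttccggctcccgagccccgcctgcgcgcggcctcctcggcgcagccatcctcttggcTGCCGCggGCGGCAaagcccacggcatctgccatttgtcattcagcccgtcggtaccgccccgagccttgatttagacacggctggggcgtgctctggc
MEST: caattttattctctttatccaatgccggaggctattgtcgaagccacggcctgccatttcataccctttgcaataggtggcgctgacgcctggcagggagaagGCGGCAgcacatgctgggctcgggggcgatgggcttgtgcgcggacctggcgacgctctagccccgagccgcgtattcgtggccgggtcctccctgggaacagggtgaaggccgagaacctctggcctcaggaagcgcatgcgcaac
NDN: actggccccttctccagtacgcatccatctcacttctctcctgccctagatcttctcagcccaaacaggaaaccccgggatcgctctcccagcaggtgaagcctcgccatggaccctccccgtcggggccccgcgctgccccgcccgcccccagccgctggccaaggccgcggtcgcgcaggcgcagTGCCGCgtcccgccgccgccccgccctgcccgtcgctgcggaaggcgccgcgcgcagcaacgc
PLAGL1 held 2 matches of the hexamer, MEST and NDN held 1 match each and NLRP2 0. CpG pairs numbered 32 in the PLAGL1, 30 in the NDN, 20 in the MEST and 10 in the NLRP2 window. Over the 48 windows found for 20 imprinted genes, 31.2% held the hexamer on either strand, against 12.7% of 34943 windows of the same length. In both sets a gene with several starts gives several windows, so these are shares of windows and not of genes. The hexamer itself holds a CpG pair, and the windows of the imprinted genes were richer in these. Their median was 13 CpG pairs against 11, and 0.643 against 0.556 as observed to expected. The match is of letters only, and methylation was not measured. Whether any of these windows lies in an imprinting control region was not examined.

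Markers of host cells moved with the SKNAS arms. The summed TPM of the 8 host fibroblast markers was 1135 to 1336 in control and 803 to 896 in Hmx1 libraries, and 3 of the 8, PDGFRA, LUM and DPT, were called lower. DCN went the other way, from 50.9 to 90.8 TPM in control to 93.9 to 112.4 TPM in Hmx1 libraries (adjusted p = 0.0629), as did PDGFRB, from 20.2 to 33.2 TPM to 34.4 to 45.1 TPM (adjusted p = 0.284), both without overlap. The 6 leukocyte markers summed to 77.3 to 105 TPM in control and 189.5 to 287 TPM in Hmx1 libraries, nearly all of it PTPRC (76 to 102 and 187 to 285 TPM), with ITGAM at 0 in the controls and LYZ at 0 in the Hmx1 libraries. CD14 fell, from 1.098 to 1.65 TPM to 0.258 to 0.732 TPM (adjusted p = 0.0277). The 6 endothelial markers summed to 3.62 to 4.75 and 6.11 to 8.96 TPM, with PECAM1 at 0 in both arms. The skeletal muscle sums, over 7 markers, were 7.75 to 12.5 and 4.72 to 7.31 TPM, with MYH4 at 0 in both arms and MYH1 and MYH2 at 0 in the controls, and the 4 adipocyte markers summed to under 1 TPM. MEST and DLK1 are known to be made by mesenchymal cells as well as by neuroblasts. The part of these cells in the falls of the imprinted genes was not tested.

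In LAN-1, 0 of the 31 tested genes were called between arms by limma, against 0.45% of all genes (0.172% higher and 0.279% lower), and the arms did not overlap for 6, against 15.8%. The median log2 change of the 31 was 0, and that of all genes was -0.05. At an unadjusted p under 0.05 there were 3 genes, DLX5, RTL1 and IGF2. DLX5 stood at 2.42, 2.27 and 2.64 TPM in control and at 5.64, 7.04 and 5.39 TPM in Hmx1 libraries (2.46-fold, log2 change 1.02, SE 0.23, adjusted p = 0.0674). It passed with FPKM (0.83, adjusted p = 0.0308), median-ratio scaling (1.06, adjusted p = 0.012) and quantile normalization (1.03, adjusted p = 0.0155), and over all 17 alternatives its adjusted p ran from 0.012 to 0.288. RTL1 went from 11.2, 13.1 and 9.16 TPM to 35.6, 15.2 and 26.9 TPM without overlap (log2 change 1.08, adjusted p = 0.316). IGF2 was at 13.1, 13.2 and 21.5 TPM and at 7.13, 2.93 and 11.3 TPM, also without overlap (-1.17, adjusted p = 0.604). DLK1, at 2213 ± 114.8 and 2226 ± 303 TPM, had a log2 change of 0.00 with an SE of 0.14, and NLRP2 and PEG3 were listed at 0 in both arms.

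In KELLY, 1 of the 31 was called, ZFP57, against 0.0912% of all genes (0.0483% higher and 0.0429% lower), and it was the only 1 of the 31 without overlap, against 6.67% of all genes. The median log2 change of the 31 was 0.06, and that of all genes 0.02. ZFP57 (ENSG00000204644, chromosome 6, 29640169 to 29648887) went from 17.7, 17.0 and 16.0 TPM to 11.4, 8.58 and 5.51 TPM. It fell by 1.99-fold (log2 change -0.96, SE 0.18, limma adjusted p = 0.0444). The Hmx1 libraries were spread wider than the controls, at 8.49 ± 2.93 against 16.9 ± 0.838 TPM. The call lies near the threshold and ended in 10 of 17 alternatives, with adjusted p from 0.00738 to 1, where 1 is the fit of the KELLY groups alone. It ended without control replicate 1 (-0.93, adjusted p = 0.0673), 2 (-0.96, adjusted p = 0.061) or 3 (adjusted p = 0.0863) and without Hmx1 replicate 2 (adjusted p = 0.11) or 3 (-0.72, adjusted p = 0.107). CDKN1C stood at 33.8, 20.7 and 17.9 TPM in control and at 33.4, 27.0 and 62.9 TPM in Hmx1 libraries, which overlapped (log2 change 0.70, adjusted p = 0.725).

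**Figure D4:**
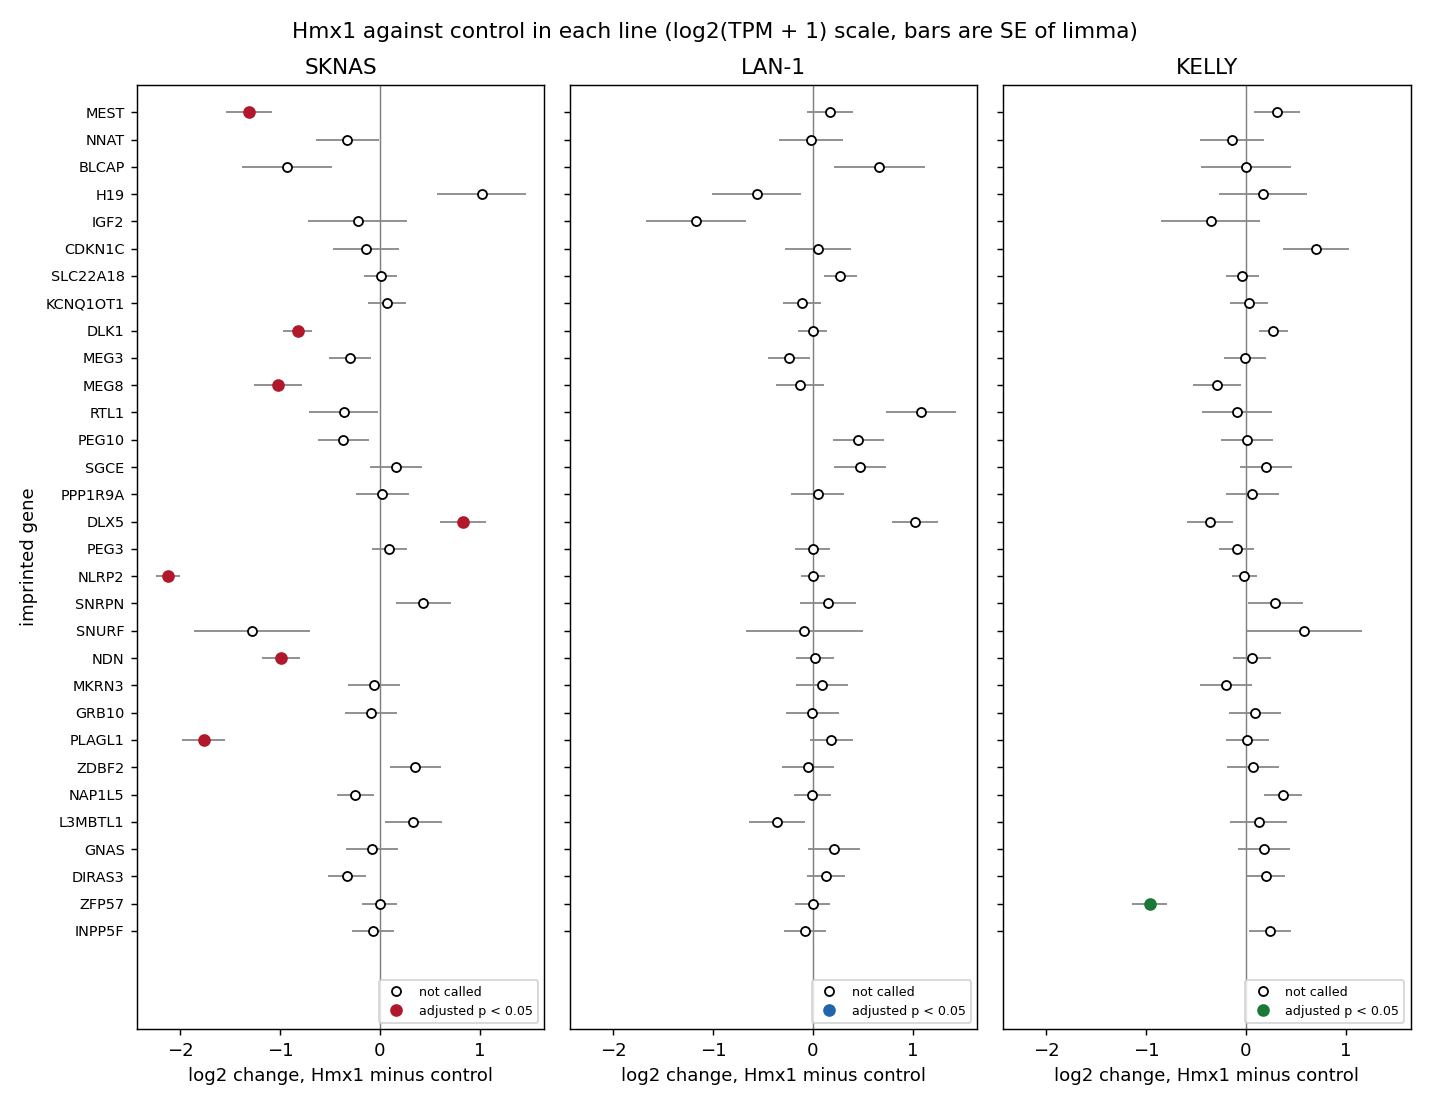
log2 change of Hmx1 against control (horizontal, log2(TPM + 1) scale) with its SE for the 31 tested imprinted genes (vertical), in SKNAS, LAN-1 and KELLY. Filled points passed an adjusted p of 0.05 in limma. SKNAS has 7 filled points, 6 of them left of 0, LAN-1 has 0 and KELLY has 1, ZFP57.

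The differences between the effects were tested themselves. Each pair of these comparisons shares the arms of a line. The Hmx1 effect in SKNAS was lower than in LAN-1 for 5 of the 31 genes, against 2.01% of all genes lower, 2.98% higher and 4.99% in either direction. These were NLRP2, PLAGL1, MEST, NDN and DLK1. Against KELLY the SKNAS effect was lower for 5 and higher for 2 genes, DLX5 and ZFP57, against 2.35% and 2.5% of all genes and 4.85% in either direction. Of these 12 differences, 6 involve a gene near 0 in 1 of the lines: NLRP2, NDN and MEST (under 1 TPM in the controls) in LAN-1, NLRP2 and PLAGL1 in KELLY, and ZFP57 in SKNAS. There a change as large as in the other line could not have been seen on the log2(TPM + 1) scale. These calls therefore mainly restate the effect in the other line. NDN in KELLY, at 1.05 to 2.45 TPM in the controls, is also low enough for the pseudocount of 1 to understate a change. MEST in KELLY and DLK1 in both other lines were abundant, and their log2 changes there were 0.31 for MEST in KELLY, and 0.00 in LAN-1 and 0.27 in KELLY for DLK1. Between LAN-1 and KELLY 0 of the 31 effects were called by limma, against 0.209% of all genes (0.102% higher and 0.107% lower), with 3 at an unadjusted p under 0.05.

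Genes that set or keep imprints were given by a list of 30, of which 23 were tested. None was called between arms in SKNAS, LAN-1 or KELLY, where 8.76%, 0.45% and 0.0912% of all genes were called. At an unadjusted p under 0.05 there were 2, 1 and 0, and the median log2 changes were -0.05, -0.15 and -0.10. With 23 genes and such shares, few or 0 calls say little about the list. Between lines 7, 12 and 12 of the 23 were called, in the order SKNAS against LAN-1, SKNAS against KELLY and LAN-1 against KELLY. These are 30.4%, 52.2% and 52.2% of the list, beside 52%, 65.7% and 51.8% of all genes. For the line named first, 5 were higher and 2 lower, 11 and 1, and 10 and 2. The median of all genes was shifted upwards as well, by 0.18, 0.54 and 0.34. CTCFL, the germ-line paralogue of the insulator protein CTCF, was at a mean of 47.2 TPM in KELLY controls and at 0 TPM in SKNAS controls (log2 difference -5.44, adjusted p = 2.01e-11). CTCFL was the only gene of the list called higher in KELLY than in SKNAS. KELLY thus carried both CTCFL and ZFP57. SMCHD1, a chromatin protein of silenced loci, was higher in SKNAS than in LAN-1 (1.33, adjusted p = 0.000121) and in KELLY (1.21, adjusted p = 0.000214). SETDB1, a histone methyltransferase recruited with ZFP57 and TRIM28, was higher in LAN-1 than in KELLY (1.25, adjusted p = 3.28e-05).

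Neighbouring genes of the same clusters were given by a list of 85, of which 62 were tested. In SKNAS 6 rose and 3 fell between arms, 14.5% of the 62 beside 8.76% of all genes, with a median log2 change of 0.00. In LAN-1 and KELLY 0 were called, beside 0.45% and 0.0912% of all genes, with 6 and 7 at an unadjusted p under 0.05. KCNK9, a potassium channel gene next to PEG13, rose from 0.317 to 4.67 TPM (log2 change 2.05, adjusted p = 0.000103), and OCA2, a pigmentation gene of 15q, from 0.168 to 3.43 TPM (1.89, adjusted p = 7.63e-07). TFPI2, a protease inhibitor gene of 7q21, fell from 24.7 to 5.18 TPM (-2.05, adjusted p = 7.83e-07), and BEGAIN, next to DLK1, rose from 1.71 to 4.44 TPM (1.11, adjusted p = 0.0243). DLX6, named after its values were seen because it lies beside DLX5, rose from 1.14 to 3.61 TPM (1.11, adjusted p = 0.0241).

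Receptors, binding proteins and RNA-binding partners of IGF2 were given by a list of 14, of which 12 were tested. In SKNAS 0 rose and 3 fell between arms, 25.0% of the 12 beside 8.76% of all genes called and 3.8% lower, with a median log2 change of -0.14 (0 over all genes). IGF2BP1 and IGF2BP2, RNA-binding proteins named for IGF2 transcripts, fell from 23.7 to 6.70 TPM (-1.69, adjusted p = 0.000705) and from 52.6 to 19.7 TPM (-1.35, adjusted p = 0.000134). IGFBP4, a secreted binding protein, fell from 136 to 86.3 TPM (-0.65, adjusted p = 0.014), while IGF2 itself did not pass. In LAN-1 and KELLY 0 of the 12 were called, beside 0.45% and 0.0912% of all genes, with 1 and 0 at an unadjusted p under 0.05. Between lines 10, 12 and 7 of the 12 were called, in the order given above, beside 52%, 65.7% and 51.8% of all genes. For the line named first, 7 were higher and 3 lower, 10 and 2, and 3 and 4. LIN28B, an RNA-binding protein of embryonic cells, was at a mean of 54.9 TPM in KELLY and 0.0322 TPM in SKNAS controls (-5.67, adjusted p = 3.9e-12), and IGF2BP2 had the reverse order, at 52.6 TPM in SKNAS and 0.11 TPM in KELLY (5.58, adjusted p = 1.8e-13). INSR, the insulin receptor, which also binds IGF2, was at 7.89 TPM in SKNAS and 0.0189 TPM in KELLY controls (3.11, adjusted p = 2.75e-10).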

How the data were processed

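Per the labels' protocols, RNA from xenograft tumours was made into stranded poly(A) libraries and sequenced as read pairs. STAR, FastQC and bcl2fastq are named in the submitters' processing notes. No source used here gives the tool behind the gene tables, its annotation, its use of strand or the handling of mouse reads. The main unit was the deposited TPM column, named so per the file headers. The deposited FPKM column served as an alternative. Coverage, a deposited per-base coverage signal per the file headers, was only looked at beside low values. Coordinates were read as GRCh37, since the last chromosome 1 gene ends at 249231242, beyond the 248937099 of RefSeq GRCh38. Sequences came from RefSeq GRCh38.p14 and were not mixed with them.

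In R 4.3.3, limma 3.58.1 modelled log2(TPM + 1) of the 18650 genes at 1 TPM or more in at least 3 libraries, with 6 group means, 12 residual degrees of freedom and a trended prior (median prior degrees of freedom 4.95). The pseudocount of 1 understates changes of low genes. P-values were two-sided and adjusted by the Benjamini-Hochberg method over all genes in each of 9 comparisons. The fits were tested on simulated data. Alternatives were 12 other settings and leaving out each of the 18 libraries. Identifiers on more than 1 line of a table, 8 to 12 per library, were summed. Where genes overlap on opposite strands, their reads may have been mixed.

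The members and gene lists were chosen with earlier results of these data known. Every matched member is given with values per library or with their range, and the unmatched ones are named. Not every call between lines is printed with its adjusted p-value. Of each further list at most the 4 called genes with the largest change per comparison are named.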

Additional observations from a re-analysis of the deposited data

Results flagged for a closer look

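The effect of the Hmx1 arm differed between lines, by the limma test of the difference itself, for 7 imprinted genes. Where a gene is near 0 in 1 line, as NLRP2, NDN and MEST are in LAN-1, NLRP2 and PLAGL1 in KELLY and ZFP57 in SKNAS, the scale fixes most of the difference and it mainly restates the effect in the other line. For NDN in KELLY, at 1.05 to 2.45 TPM in the controls, the scale also understates a change. All values are differences of log2 changes on the log2(TPM + 1) scale, with SKNAS first, over 3 libraries per arm.

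Against LAN-1 and KELLY the differences were -2.12 and -2.11 for NLRP2 (adjusted p = 4.15e-07 and 4.42e-07) and -1.95 and -1.78 for PLAGL1 (0.000577 and 0.00139). For MEST they were -1.48 and -1.62 (adjusted p = 0.00948 and 0.00502), for DLK1 -0.82 and -1.10 (0.0235 and 0.0029), and for NDN -1.01 and -1.05 (0.0376 and 0.0304). Against KELLY alone they were 1.19 for DLX5 (adjusted p = 0.0428) and 0.96 for ZFP57 (0.0307), which was listed at 0 in all SKNAS libraries. NLRP2 and PLAGL1 kept both calls under all 23 alternatives that bear on them. MEST lost each of its calls in 1, with a pseudocount of 0.1. NDN lost its calls in 13 (LAN-1) and 10 (KELLY), DLX5 in 11, ZFP57 in 10 and DLK1 against LAN-1 in 7, while DLK1 against KELLY lost none. The highest adjusted p was 0.162 and 0.172 for NDN, 0.133 for DLX5, 0.177 for ZFP57 and 0.0774 for DLK1. The losses include leaving out SKNAS control replicate 1 for each of these genes. SKNAS Hmx1 replicate 2 did so as well, and all 7 losses of DLK1 came from leaving out 1 library.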

How the results depend on the processing

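Of 83 calls of imprinted genes in the 9 comparisons, 55 kept an adjusted p under 0.05, whatever the sign, in every alternative that bears on them. PLAGL1, SKNAS minus LAN-1, is among the 55 although its sign reversed in the Hmx1 arms (limma adjusted p = 0.0172). With the Hmx1 arms in place of the controls, the SKNAS minus LAN-1 difference was -0.65 for PLAGL1 and -1.15 for RTL1, and the LAN-1 minus KELLY difference was 0.17 for DLX5, each of the opposite sign to the controls. INPP5F, SKNAS minus KELLY, was -0.054 (median-ratio scaling) and -0.12 (quantile normalization), which remove the shift of all genes.

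The number of genes called between LAN-1 arms was 1 with FPKM, median-ratio scaling and quantile normalization, and so was that for LAN-1 minus KELLY effects, the gene being DLX5 in both. It was 0 between KELLY arms with a pseudocount of 0.1 or 0.5, no filter, only the groups compared, or a robust prior. With a pseudocount of 0.1 it was 3 for the SKNAS minus LAN-1 and 3 for the SKNAS minus KELLY effects, and only the groups compared gave 4 for the latter. The cause was not tested.

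Leaving out 1 library gave 5 to 7 genes between SKNAS arms, 0 between LAN-1 arms and 0 to 1 between KELLY arms. It gave 16 to 17, 24 to 25 and 18 to 21 between controls, and 3 to 5, 4 to 7 and 0 to 1 for the differences of effects. The count of 1 for LAN-1 minus KELLY came without KELLY Hmx1 replicate 1 (ZFP57). The 3 came without SKNAS control replicate 1 or 3, SKNAS Hmx1 replicate 2 or 3, LAN-1 control replicate 1 or LAN-1 Hmx1 replicate 3, and the 4 without SKNAS control replicate 1 or 2 or SKNAS Hmx1 replicate 2.

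No paired analysis was possible because the labels give no replicate numbers that pair libraries. Depth is unknown, so a value listed at 0 sets no upper limit.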
